A study of Rattus norvegicus with 145 samples.

Results

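The striatum of rats aged 24 months was compared with that of rats aged 10 months, with both genotypes of a Huntington's disease model in 1 fit. The comparison took every striatal library of the 2 ages, 31 of the 145 libraries in the series. Animals were Long Evans rats, either heterozygous for the Q130 knock-in (KI), which places an expanded CAG repeat in the animal's own huntingtin gene, or wild type (WT). The younger group was balanced, with 5 rats of each sex in each genotype. The older group was smaller, with 7 KI rats (3 of them female) and 4 WT rats (2 of them female). Each animal gave 1 striatal library at 1 age, so the comparison is between different animals and follows none over time. The labels used here carry no dates of dissection or library preparation, so anything that differed between the 2 age cohorts besides age cannot be told apart from age.

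The striatum is the input station of the basal ganglia, and most of its neurons are GABAergic medium spiny neurons that receive cortical glutamate and midbrain dopamine. These neurons carry a set of transcripts that are far more abundant in striatum than elsewhere in the brain, among them dopamine receptors and neuropeptide precursors. They are the cells lost most severely in Huntington's disease, in which transcripts of this kind fall early. In the ageing rodent brain, glial and immune transcripts are known to rise and many neuronal transcripts to fall. The deposited tables name genes by Ensembl rat identifier alone, and 0 of 32883 identifiers could be paired with a symbol, so genes are described here by identifier, by level and by the region in which they were enriched, without names or roles.

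The shallowest library held 27043422 estimated counts and the deepest 32111042. Labelled tissue was checked with the 255 genes that were at least 4-fold higher in striatum than in both cortex and cerebellum of 19-month WT animals. Their mean log2 CPM (counts scaled to a common library total) ran from 2.24 to 3.53 in the 31 striatal libraries, from -0.139 to 0.417 in the cortex libraries of the same animals and from -0.875 to -0.302 in cerebellum at 24 months, with no overlap. Across genes, 3 libraries had an outlying mean rank correlation with the other 30, namely WT male 2 at 10 months, KI male 4 at 24 months and WT female 2 at 24 months. The spread between animals of one genotype and sex was larger at 24 months, with a median SD over genes of 0.254 log2 units against 0.218 at 10 months.

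Between 10 and 24 months 2209 of 16076 tested genes changed in striatum, a background of 13.7% (edgeR quasi-likelihood F test with genotype and sex as covariates, Benjamini-Hochberg adjusted p under 0.05). Of these, 1110 were higher at 24 months (6.9% of those tested) and 1099 were lower (6.84%). The changes were mostly small, with a median size of 0.404 log2 units among the genes that rose and 0.265 among those that fell. Rises reached further than falls. At least a 2-fold difference was seen for 182 of the genes that rose and for 7 of those that fell, and at least a 4-fold difference for 26 and 1. The sign was the same in females and males of both genotypes for 857 of the genes that rose and 974 that fell. Over all 16076 genes it was the same for 4831. The called genes were chosen in these same libraries, which favours a shared sign, so their counts are a description.

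Genes that fell were the more abundant, with a median level of 5.2 log2 CPM against 4.06 for those that rose. The share of tested genes that fell grew with level, from 1.76% under 0 log2 CPM to 3.75%, 5.41%, 7.83% and, at 6 log2 CPM and over, 12.4%. The share that rose lay between 4.8% and 7.38% in the same bins. On log2 of the deposited TPM-scale values plus 0.1, limma-trend called 472 genes higher and 814 lower, a smaller and less even split. The mean level of the genes that rose ran from 3.32 to 3.89 log2 CPM in the 10-month libraries and from 3.55 to 4.81 at 24 months, with KI male 4 at 4.81 and WT female 2 at 4.32 highest. That of the genes that fell ran from 4.87 to 5.24 and from 4.61 to 4.94. Both ranges overlap between the ages.

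**Figure D1:**
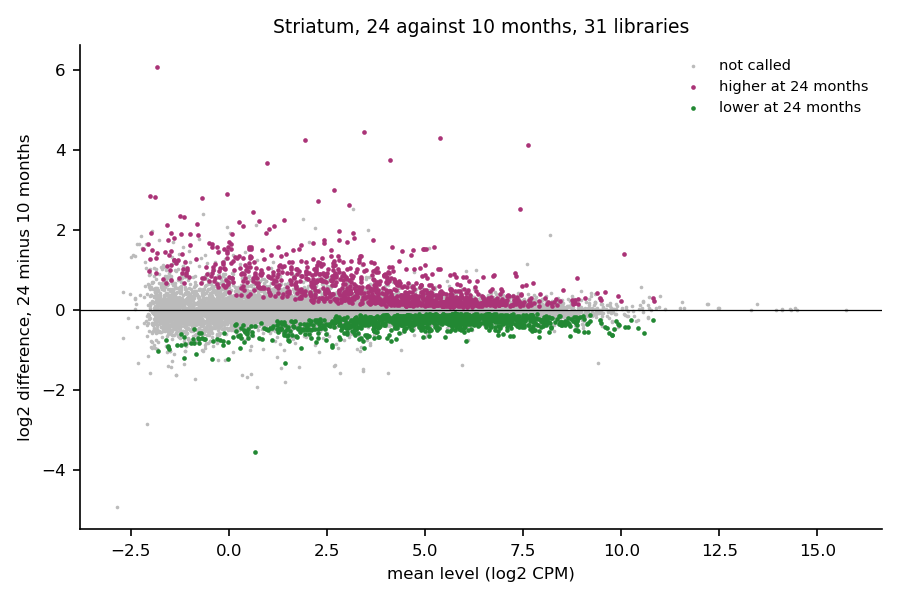
Each point is 1 of 16076 genes in the 31 striatal libraries, placed by its mean level (log2 CPM, horizontal) and its 24 minus 10 month difference (log2, vertical); magenta and green points are the 1110 and 1099 genes called higher and lower. Called rises reach larger differences than called falls, and the called falls lie mostly at the higher levels.

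The number of calls depended on a few libraries. It was 738 (337 higher, 401 lower) without the 3 outlying libraries and 1195 without WT female 2 of 24 months alone. Of the 738 calls, 701 were also made with all 31 libraries, most of which entered both fits. Without the 3 libraries the median difference was 0.267 log2 units over the genes that had risen with all libraries and -0.232 over those that had fallen. With all 31 libraries the median sizes were 0.404 and 0.265, so rises and falls were closer in size without the 3.

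By the rule for named genes, 2 identifiers that rose and 2 that fell are described. They were chosen by p in the striatal libraries that also entered the test between regions. That choice favours a larger difference in striatum than in cortex. ENSRNOG00000008816 was 2.81 times as high at 24 months. Its level at 10 months ran from 11.3 to 21.9 CPM with a median of 14.6 (mean 15.5 ± 3.09, SD, n = 20). At 24 months it ran from 23.6 to 68.7 CPM with a median of 35.7 (mean 43.9 ± 17.1, SD, n = 11). The 4 WT animals of 24 months read 23.6 and 68.7 (females) and 32.2 and 27.4 CPM (males), and the 7 KI animals 27.8 to 66.2 with a median of 54.4. Every 24-month library lay above every 10-month library, which was so for 1 of the 16076 genes (0.00622%). The difference was 1.49 ± 0.15 log2 units (SE), with an adjusted p of 3.61e-07 in edgeR. It passed in each genotype, at 1.24 ± 0.22 in WT (adjusted p 0.0269 in edgeR) and 1.66 ± 0.19 in KI (adjusted p 3e-05 in edgeR).

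ENSRNOG00000008816 lay higher at each later age sampled, as a description of means scaled over all 145 libraries. Striatal means were 12, 14.1, 16.1, 24.6 and 45.2 CPM at 2, 6, 10, 19 and 24 months. Cortex means were 12.3, 18 and 24.5 CPM at 10, 19 and 24 months, and cerebellum means 8.88 and 13.1 CPM at 19 and 24 months. In cortex of the animals compared here the difference was 1.01 ± 0.06 log2 units (adjusted p 6.15e-13 in edgeR). The striatal difference exceeded the cortical one by 0.42, which did not pass the test between regions (adjusted p 0.108 in edgeR). At 2 and 6 months only males were sampled, and 19-month animals carry another identifier prefix, so these levels are set side by side without a test.

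ENSRNOG00000020151, a gene of low level, was 4.77 times as high at 24 months. It read 0.253 to 2.49 CPM at 10 months with a median of 0.992 (mean 1.09 ± 0.559, SD, n = 20) and 2.42 to 9.12 CPM at 24 months with a median of 3.95 (mean 5.2 ± 2.3, SD, n = 11). The WT animals of 24 months read 2.42 and 9.12 (females) and 2.95 and 3.79 CPM (males), and the KI animals 3.48 to 7.97 with a median of 5.72. The ages overlapped in 1 pair of libraries, WT female 1 at each age. The difference was 2.25 ± 0.25 log2 units (adjusted p 2.3e-06 in edgeR), with 2.00 ± 0.37 in WT and 2.43 ± 0.33 in KI. In cortex it was 0.79 ± 0.31 and did not pass (adjusted p 0.0999 in edgeR), and the excess of striatum over cortex was 1.48 log2 units (adjusted p 0.0468 in edgeR). Cerebellum had the highest levels of this transcript, with means of 7.97 and 9.22 CPM at 19 and 24 months on the scale of all libraries, against 2.23 and 5.35 CPM in striatum.

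ENSRNOG00000021117, an abundant gene, stood at 70.8% of its 10-month level at 24 months. It read 94.5 to 146 CPM at 10 months with a median of 124 (mean 123 ± 13.7, SD, n = 20) and 65.6 to 111 CPM at 24 months with a median of 84.2 (mean 86.7 ± 15.3, SD, n = 11). The 7 KI animals of 24 months, at 65.6 to 94.0 CPM with a median of 75.1, all lay below the lowest 10-month library. Of the WT animals, 1 female at 83.8 CPM lay there too, while the other female and the males read 111, 108 and 102 CPM, within the 10-month range. The difference was -0.50 ± 0.07 log2 units (adjusted p 0.000129 in edgeR), made up of -0.28 ± 0.10 in WT, which did not pass, and -0.66 ± 0.08 in KI, which did. The difference between genotypes in this gene did not pass (-0.38 ± 0.13, adjusted p 0.999 in edgeR). Striatum held more of the transcript than the other regions, with 128 CPM at 10 months and 89.5 at 24 months on the scale of all libraries, against 44.6 and 41.3 in cortex and 40.5 in cerebellum at 24 months. The fall was larger in striatum than in cortex by 0.42 log2 units (-0.42, adjusted p 0.00479 in edgeR), for a gene chosen on its striatal fall.

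ENSRNOG00000033912 stood at 76.8% of its 10-month level. It read 163 to 242 CPM at 10 months with a median of 193 (mean 197 ± 18.1, SD, n = 20) and 122 to 173 CPM at 24 months with a median of 151 (mean 151 ± 16.9, SD, n = 11). Below the lowest 10-month library lay 8 of the 11 libraries of 24 months, while KI female 2 at 169, WT male 1 at 173 and WT male 2 at 169 CPM lay within the 10-month range. The difference was -0.38 ± 0.06 log2 units (adjusted p 0.000146 in edgeR), with -0.25 ± 0.08 in WT, which did not pass, and -0.47 ± 0.07 in KI. In cortex it went the other way, by 0.17 ± 0.05 log2 units (adjusted p 0.0451 in edgeR), and the regions differed by -0.54 (adjusted p 0.000571 in edgeR). In females alone its adjusted p in edgeR was 0.0777 and in males alone 0.0582, both with the same sign, and that of ENSRNOG00000021117 in males alone was 0.0608.

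**Figure D2:**
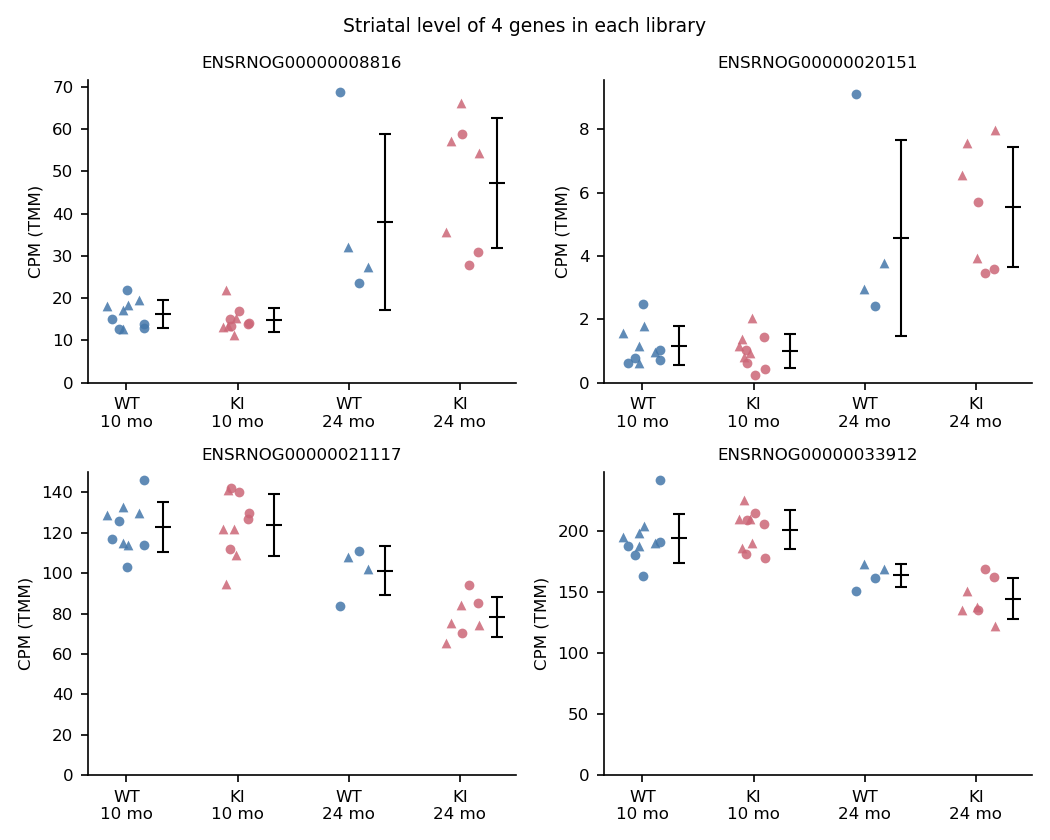
Striatal level (CPM with TMM factors, vertical axes starting at 0) of 4 genes in each library by genotype and age (mo, months), with circles for females and triangles for males; bars beside the points give the mean and SD of each group. ENSRNOG00000008816 and ENSRNOG00000020151 are higher at 24 months with a wide spread between animals, and ENSRNOG00000021117 and ENSRNOG00000033912 are lower, and at 24 months the KI mean is below the WT mean, with overlap between animals.

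Genes enriched in striatum fell more often than the genes tested as a whole. They were chosen in libraries of 19-month WT animals, and no such library entered the comparison of ages. Of the 255, 55 fell and 0 rose in edgeR, a share of 21.6% lower against 6.84% of all genes tested. Their median difference was -0.28 log2 units against 0.00 over all tested genes, and 218 of 255 lay below 0. The 55 falls ran from -0.29 to -1.22 log2 units with a median of -0.58. A lower mean at 24 months in both sexes of both genotypes was seen for 40 of the 55. That is a smaller part than the 974 of all 1099 genes that fell. The share was also above that of other genes in each bin of level. At 6 log2 CPM and over, 48.4% of 31 enriched genes fell against 12% of the others, at 4 to 6 it was 25.6% against 7.67%, at 2 to 4 it was 24.1% against 5.03%, and under 2 it was 9.8% against 2.65%. The count of 55 was 35 (13.7%, against 4.21% of all genes) without WT female 2 of 24 months alone. It was 4 in females alone (1.57%, against 0.237%) and 1 in males alone (0.392%, against 0.00616%). In whole tissue, fewer cells of a type, less RNA per cell and a different share of neighbouring tissue cannot be told apart. None of these was tested.

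The other region-enriched groups held fewer calls. Of the 159 tested genes enriched in cortex, 2 rose (1.26%, against 6.9% of all genes) and 3 fell (1.89%, against 6.84%), with a median difference of 0.04 log2 units. Of the 265 tested genes enriched in cerebellum, 17 rose (6.42%, against 6.9% of all genes) and 9 fell (3.4%), with a median of 0.04. The count of 17 moved with single libraries, and so did the share of all genes called higher. It was 5 (1.86%, against 3.17% of all genes) without WT female 2 of 24 months and 8 (3.03%, against 4.66%) without KI male 4. It was 11 (4.17%, against 5%) without KI female 3 and 29 (10.7%, against 7.96%) without WT male 1 of that age. Without KI female 3 of 10 months it was 10 (3.77%, against 5.67%). Without KI males 2 and 3 of 10 months in turn it was 9 (3.41%, against 5.48%) and 11 (4.17%, against 5.3%). The 9 falls became 5 (1.89%, against 4.58%) without KI female 3 of 24 months. Seen from the other side, 16.4% of the genes that fell were at least 2-fold higher in striatum than in cortex of 19-month WT animals, against 2.16% of those that rose and 8.85% of all genes.

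Per library, the mean of the striatum-enriched genes ran from 2.4 to 3.48 log2 CPM at 10 months (mean 3.05 ± 0.321, SD, n = 20) and from 2.21 to 3.14 at 24 months (mean 2.74 ± 0.351, SD, n = 11), so the ages overlapped widely. The lowest libraries of 24 months were KI male 2 at 2.21, KI male 1 at 2.22 and KI female 3 at 2.27, and the lowest of 10 months was a KI male at 2.4. The 4 WT libraries of 24 months read 3.14, 2.77, 2.92 and 3.13. KI animals made up 10 of the 20 libraries at 10 months and 7 of the 11 at 24 months. By genotype, the means at 10 and 24 months were 3.15 and 2.99 in WT and 2.94 and 2.59 in KI. The mean of the cortex-enriched genes ran from 0.482 to 1.25 log2 CPM at 10 months and reached 1.94 at 24 months, where KI male 2 at 1.94 and KI male 1 at 1.48 stood above the 10-month range. Without those 2 libraries the striatum-enriched genes had a median of -0.21 log2 units with 32 of them lower (12.5%), and the cortex-enriched genes a median of -0.17 with 12 of 156 lower (7.69%), against 5.76% of all genes in that fit. With the cortex-enriched mean of each library as a covariate, the striatum-enriched median was -0.28 with 85 lower (33.3%, against 8.34% of all genes). Without the 3 outlying libraries it was -0.25 with 21 lower (8.24%, against 2.49%).

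**Figure D3:**
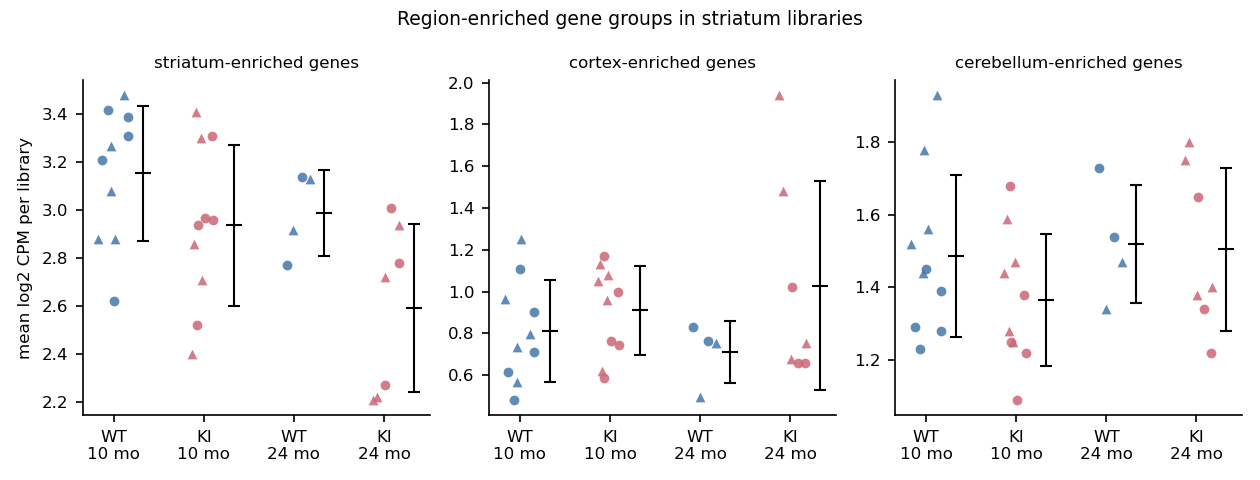
Mean log2 CPM per striatal library (vertical axes not starting at 0) of the genes enriched in striatum, cortex and cerebellum, by genotype and age (mo, months), with circles for females and triangles for males; bars give mean and SD. The striatum-enriched mean is lowest in 3 KI animals of 24 months, and 2 of these have the highest cortex-enriched means.

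Within WT animals 13 of 16076 genes passed (0.0809%), 12 higher (0.0746%) and 1 lower at 24 months, with 955 at an unadjusted p under 0.05. Within KI animals 2054 passed (12.8%), 1044 higher (6.49%) and 1010 lower (6.28%), in the same edgeR fit. The difference between the genotypes was itself tested and 0 genes passed (0%), with 655 at an unadjusted p under 0.05 and 0 calls in DESeq2, so the unequal counts do not show that the genotypes differ. WT had 4 animals at 24 months and KI 7, and the median SE of the age difference was 0.139 log2 units in WT and 0.116 in KI. The WT count was 1 without any one of WT females 2, 3, 4 or 5 or male 5 of 10 months or WT male 1 of 24 months, 2 without WT female 2 of 24 months, and between 4 and 14 without any other single library. The KI count was 1040 without KI male 4 of 24 months.

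The 2209 genes called over both genotypes were read in each, although the WT and KI libraries both served to choose them. In WT 2201 of them had the sign of the joint difference, against 12888 of all 16076 genes. Their median was 0.27 log2 units in WT for those that rose and -0.17 for those that fell, and 0.45 and -0.33 in KI. The KI difference was the larger in 1907 of the 2209. The choice of this set weighed 17 KI against 14 WT libraries, and 7 against 4 at 24 months. Of the set, 1658 genes passed in KI and 13 in WT in edgeR. That choice favours genes with larger differences in KI. For a called gene the median difference between genotypes was 0.162 log2 units and the median SE of that difference 0.166. KI and WT animals were also fitted alone, sharing no library. In KI alone edgeR called 1528 of 15477 genes (9.87%), 742 higher (4.79%) and 786 lower (5.08%). In WT alone it called 4 of 15680 (0.0255%), all 4 of them higher. Of the KI risers, 735 could be read in WT alone, and 683 of these (92.9%) had the same sign there, with a median of 0.25 log2 units in WT and 0.61 in KI. Of the 786 fallers, 744 (94.7%) did, at -0.15 and -0.41. These genes were chosen by their calls in KI, which favours a larger size in KI than in WT. Over all genes read in both fits 71.3% shared a sign.

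The striatum-enriched genes had a median difference of -0.14 log2 units in WT and -0.38 in KI, and the difference between these medians was not tested. In WT 198 of the 255 lay below 0 and 0 passed (0.00622% of all genes passed lower there). In KI 211 lay below 0 and 67 passed in edgeR (6.28% of all genes passed lower). In the cortex-enriched group the genotypes had medians of opposite sign, -0.13 in WT and 0.14 in KI, with KI males 1 and 2 of 24 months among the KI libraries.

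**Figure D4:**
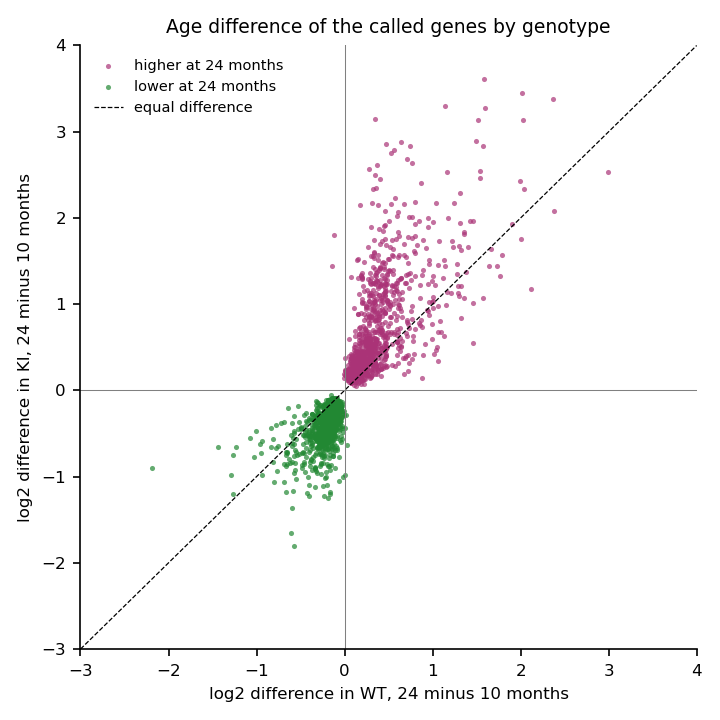
Each point is a gene called over both genotypes, with its 24 minus 10 month difference (log2) in WT on the horizontal and in KI on the vertical axis; magenta points rose, green points fell, and 9 called genes lie outside the plotted range. Most points lie in the quadrants of equal sign and farther from 0 on the KI axis, as 1907 of 2209 did. The choice of these genes weighed more KI than WT libraries.

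No gene was called for an age difference that differed between the sexes. The difference between males and females passed for 0 of 16076 genes in edgeR (0%), with 480 at an unadjusted p under 0.05 and 0 in DESeq2. Fitted alone, females gave 179 calls (1.12%), 141 higher (0.879%) and 38 lower (0.237%), and males gave 6 (0.0369%), 5 higher (0.0308%) and 1 lower (0.00616%). Of the 141 genes that rose in females, 139 had the same sign in males, with a median of 1.01 log2 units in females and 0.95 in males. Of the 38 that fell, 35 did, at -0.50 and -0.30. These genes were chosen by their calls in females, which favours a larger size in females. Over all genes 72% shared a sign.

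Cortex from the same 31 animals was fitted in the same way, and 1734 of 15886 genes passed in edgeR (10.9%), 1013 higher (6.38%) and 721 lower (4.54%) at 24 months. Of these, 999 and 708 were also tested in striatum. Rises were shared by 315 genes, 29% of the striatal and 31.5% of the cortical rises. Falls were shared by 86 genes, 7.93% of the striatal and 12.1% of the cortical ones. A further 62 of 1084 genes that fell in striatum rose in cortex. That part is no larger than the 999 of all 15510 genes read in both regions that rose in cortex. Of 1087 genes that rose in striatum, 7 fell in cortex, against 708 of the 15510. Genes that rose in striatum had a median difference of 0.39 log2 units there and 0.14 in cortex, and those that fell -0.26 and 0.00. Cortical rises read in striatum had a median of 0.17 log2 units in WT and 0.25 in KI, against 0.26 in cortex. For cortical falls the striatal medians were -0.0638 in WT and -0.0651 in KI, against -0.138 in cortex. A set called in either region was chosen there, which favours a larger size in that region.

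A test of the difference between regions, with the animal as a block, passed for 869 of 16011 genes in edgeR (5.43%). The striatal difference was the higher for 320 (2%) and the lower for 549 (3.43%). Among the 1084 genes that fell in striatum and were tested here, 398 passed, each of them with the lower value in striatum. Among the 1087 that rose, 199 passed and 198 of these had the higher value in striatum. These genes were chosen in the striatal libraries that also entered the test, so their share is a description. Of the 255 striatum-enriched genes, 23 passed as lower in striatum (9.02%) and 0 as higher, and their median difference in cortex was -0.02 log2 units. The count of 869 became 466 without the animals of the 3 outlying striatal libraries, 566 without KI female 3 and 568 without KI male 3 of 24 months.

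**Figure D5:**
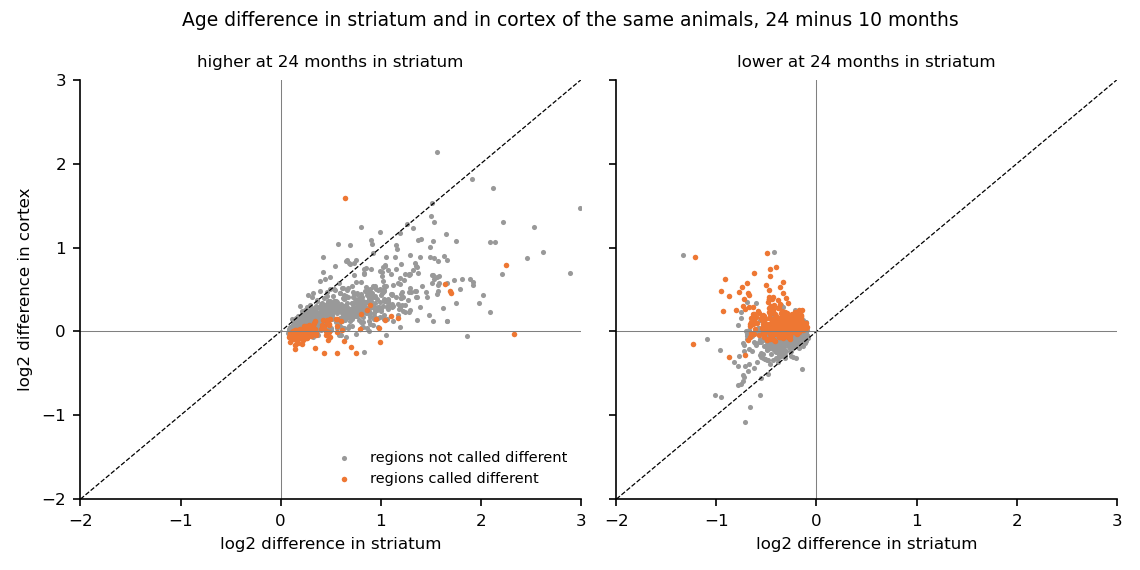
Age difference (24 minus 10 months, log2) in striatum on the horizontal and in cortex of the same animals on the vertical axis, for genes that rose (left) and fell (right) in striatum; orange points passed the test between regions, the dashed line marks equal differences, and 8 called genes lie outside the plotted range. Rises lie mostly above 0 in cortex and below the line, while falls are spread around 0 in cortex.

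At 19 months, in striatum of 20 other animals, levels of the called genes were read as a description. The mean at 19 months lay between those at 10 and 24 months for 700 of the 1110 genes that rose (63.1%) and 488 of the 1099 that fell (44.4%), against 25.8% of all tested genes. It lay on the far side of the 10-month mean for 352 of the genes that rose (31.7%) and 550 of those that fell (50%), against 50.6% of all genes. The median level of the genes that rose was 3.82, 3.86 and 4.2 log2 CPM at 10, 19 and 24 months, and that of the genes that fell 5.26, 5.29 and 5.04. In both medians, 19 months stood nearer to 10 than to 24 months. The called genes were chosen for their distance between 10 and 24 months, which makes a value between them more likely, and the 19-month animals carry another identifier prefix.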

How the data were processed

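Libraries were grouped by the labels' genotype, age, sex and tissue. Tissue was flash frozen per the labels' protocols, RNA was extracted with a Qiagen kit and libraries followed Illumina protocols. The authors' deposited table of estimated counts (8.12% of values not whole, rounded here, where the design had assumed whole counts) covers 32883 identifiers in 145 libraries. A second deposited table, named FPKM by the authors, sums to a fixed total in each library and was treated as TPM. The reference is Rat.B6.0, per the file headers, and its aligner, counter and gene annotation were not given in the sources read.

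Genes were tested with edgeR 4.0.16 in R 4.3.3 (TMM, filterByExpr, robust quasi-likelihood fit). Contrasts within genotypes and differences of differences came from cell-means models of the 31 libraries, and regions were compared with the animal as a block. Each library of a region is 1 animal, and p-values reflect the variation among animals. CPM values use TMM factors (prior count 2 on the log2 scale). Alternatives used DESeq2 1.42.0, limma 3.58.1 on log2 of the TPM-scale values, RLE factors, other filters, covariates and sample sets. A library was outlying where its mean Spearman correlation fell short of the median by over 5 scaled median absolute deviations. The fits were also run on simulated counts. The simulation drew genes independently and held no outlying libraries, so it cannot show how the calls behave with such libraries.

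Named genes were the first 2 higher and first 2 lower by p among genes past the threshold that averaged 1 log2 CPM or more and kept 1 sign in every genotype and sex, which 737 and 921 genes met. Region-enriched groups were at least 4-fold above both other regions with at least 1 CPM in 19-month WT libraries. Gene lists by symbol could not be tested, since 0 identifiers matched, and huntingtin could not be picked out. The comparison, groups and lists were chosen with earlier results of these data known. Fits without outlying libraries or without single animals in the region test, transcript length slopes and cortex-enriched means as covariates within each genotype, and the region-enriched groups under each alternative were added after seeing the data.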

Additional observations from a re-analysis of the deposited data

Results flagged for a closer look

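Of 40 groups of 4 to 10 libraries searched for a library far from the others, 4 held one, where chance gives about 1 in 20. KI male 4 of 10 months read 21.9 CPM for ENSRNOG00000008816, the highest of its group, and WT female 4 of 10 months read 242 CPM for ENSRNOG00000033912. KI male 4 of 24 months had a mean Spearman correlation of 0.9599 with the other striatal libraries, the lowest of its group, and its genes that rose had the highest mean level. The fourth was the gene of smallest p described under other observations, at 0.0337 CPM (1 count) in WT female 1 of 10 months and 0 in the rest of that group.

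The age difference differed between striatum and cortex of the same animals for 869 genes in edgeR. Among the genes described, the striatal minus the cortical difference was 1.48 log2 units in ENSRNOG00000020151 (1.478, adjusted p 0.0468 in edgeR). It was -0.4212 in ENSRNOG00000021117 and -0.5371 in ENSRNOG00000033912. The genes described were chosen on their striatal difference in the same libraries, which favours a larger difference in striatum.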

How the results depend on the processing

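The 2209 calls over both genotypes became 1286, 1235 and 1103 with limma-trend on TPM-scale values (plus 0.1, plus 1, and plus 0.1 with no filter), 179 in females, 6 in males and 738 without the outlying libraries; leaving out each library in turn gave 1195 to 2948. The 13 in WT became 7 with no count filter, 8 with length slopes, 3 without the outlying libraries and 4 with WT libraries alone, and 1 to 14 over single libraries. The 2054 in KI ranged from 1040 to 2584, and the 869 between regions from 566 to 1101, with 466 without the animals of outlying libraries. The differences between genotypes and between sexes gave 0 to 0. DESeq2, RLE factors, other filters, no sex or genotype term and all striatal ages in 1 fit moved the count of 2209 by less than 1.5 times, to between 1866 and 2962. No alternative run turned the direction of the 4 genes or of the striatum-enriched median, which lay between -0.3284 and -0.2045. The cause of these changes was not tested, and some of these fits held fewer libraries.

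Libraries of the same number at the 2 ages came from different animals and were not paired. Of 11 such pairs, 5 correlated above 0.1 (r from -0.554 to 0.287) and 2 correlated best with their own number. Values were centred within genotype, age and sex before correlation. With 2 WT animals of each sex at 24 months, the centred values of such a group mirror each other. The correlations therefore cannot decide whether the numbers carry a pairing. With the replicate number as a block the counts were 922 over both genotypes, 1 in WT and 780 in KI. The striatum-enriched genes lower at 24 months were then 20 (7.84%, against 2.95% of all genes). Library totals were of like size. The 4 WT animals of 24 months limit the precision in WT.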

Other observations

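The gene of smallest p in striatum was below the level needed for the rule on named genes and was picked out once its values were known, so its identifier is not given. It was absent or held 1 count in each of the 20 striatal libraries of 10 months. At 24 months 8 of 11 libraries held 12 to 34 counts, and KI males 1, 2 and 3 held 0 or 1 (adjusted p 2.6e-07 in edgeR). The same 8 animals held 15 to 34 counts in cortex and 25 to 36 in cerebellum, and the same 3 held 0 or 1 in every region. Its presence thus went with the animal, and age cannot be told apart here from another difference between the animals of the age cohorts. At 19 months 0 of 20 animals had 10 or more counts in any region, and at 2 months 1 of 6 did, with 27. Of 32883 identifiers, 1 had at most 1 count in each library of 10 months and at least 10 in 3 or more of 24 months, and 2 had the reverse pattern.

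Relative transcript length, read from the ratio of the deposited tables for 15912 tested genes, had a Spearman correlation of 0.0165 with the age difference over genes, which are not independent replicates. The slope of expression on length ran from -0.0967 to 0.0412 in the 10-month libraries and from -0.0615 to 0.0345 at 24 months.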
